A study of Caenorhabditis elegans with 6 samples.

Results

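The insulin signalling cascade and the stress regulators that act with it are described here through 10 genes of *Caenorhabditis elegans*, *daf-2*, *age-1*, *pdk-1*, *akt-1*, *akt-2*, *sgk-1*, *daf-18*, *daf-16*, *skn-1* and *hsf-1*. They were chosen by symbol for their known roles, with earlier results of these data known, and no measured value entered the rule. All 10 were found among the 17684 gene identifiers of the libraries, and each was read from its transcript with the highest mean level. A total of 8 passed the filter on low reads that left 7333 genes for testing, and *akt-2* and *sgk-1* did not. None of the 8 changed upon *unc-62* RNAi by the test across all genes. The largest difference was that of *daf-2*, which was lower upon *unc-62* RNAi in each of the 3 replicates and missed the threshold.

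In this pathway insulin-like peptides bind the receptor DAF-2, which activates the phosphoinositide 3-kinase AGE-1. The lipid that AGE-1 makes activates PDK-1 and the kinases AKT-1, AKT-2 and SGK-1, and the lipid phosphatase DAF-18 removes it. The AKT kinases phosphorylate the FOXO transcription factor DAF-16 and keep it out of the nucleus, so that reduced signalling lets DAF-16 enter it, and worms with reduced *daf-2* function live long. SKN-1, the worm relative of the mammalian Nrf factors, drives detoxification genes and is held back by the same kinases, and the heat shock factor HSF-1 drives chaperone genes and is needed for the long life of *daf-2* mutants. These proteins are controlled largely by phosphorylation and location, which an RNA measurement does not show.

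The libraries came from whole worms of the strain TJ1060, of genotype *fem-15(b26);spe-9(hc88)*, whose hermaphrodites are sterile when raised at 25°C, and both treatments share this background. Batches of about 10000 worms were divided on day 1 of adulthood between bacteria making *unc-62* double-stranded RNA and bacteria with the empty vector (control RNAi), kept for 3 days at 20°C and collected on day 4 of adulthood. For RNAi in adults the methods give plates with the drug FUDR, ampicillin and the inducer IPTG, without naming these libraries. *unc-62* encodes a homeodomain co-factor of Hox proteins of the Homothorax and Meis family, and the comparison asks what its knockdown in adults does to mRNA levels. There were 3 libraries of each treatment, each from many pooled worms, and RNA was read at the 3′ end of transcripts.

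The libraries held between 15188765 and 22868980 uniquely mapped reads. The *unc-62* RNAi libraries shared 1 sequencing lane and the control libraries another, so lane and treatment cannot be told apart in any value below. Treatment names stand for the labels, because the targeted gene gave no check of them: *unc-62* had 17, 39 and 25 reads upon *unc-62* RNAi and 27, 31 and 26 reads in control RNAi (log2 fold change -0.27, SE 0.28, limma, Benjamini-Hochberg adjusted p = 0.746). Replicate 3 stood apart from the others. The SD of the log2 fold changes of all tested genes was 1.23 in replicate 3, against 0.663 in replicate 1 and 0.701 in replicate 2. Levels are in RPM, reads scaled to a total of 1000000 uniquely mapped reads. Fold changes are log2 values of *unc-62* RNAi over control RNAi on the scale of RPM + 0.05, after TMM scaling (a scaling between libraries that uses genes of moderate change), and a gene was called at an adjusted p under 0.1.

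By limma with Benjamini-Hochberg adjustment, 0 of the 8 tested genes were called, beside 96 of all 7333 genes (1.31%). None of the 8 was called either with no replicate block (1.94% of all genes called), by edgeR on the recovered reads (1.38%) or by DESeq2 (4.01%). At an unadjusted p under 0.05 there was 1 of the 8, *daf-2*, beside 978 of all genes (13.3%). Before TMM scaling, the RPM ranges of the treatments were free of overlap in 0 of the 8. They were so in 980 of all genes (13.4%). The estimate was below 0 for 6 of the 8 and above 0 for 2, with a median of -0.07. Over all tested genes 45.9% were below 0, and the median was 0.04. The 8 thus had no called change. All 10 genes had at most 9.11 RPM in any library, as the plot of the level of each gene by library shows.

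**Figure D1:**
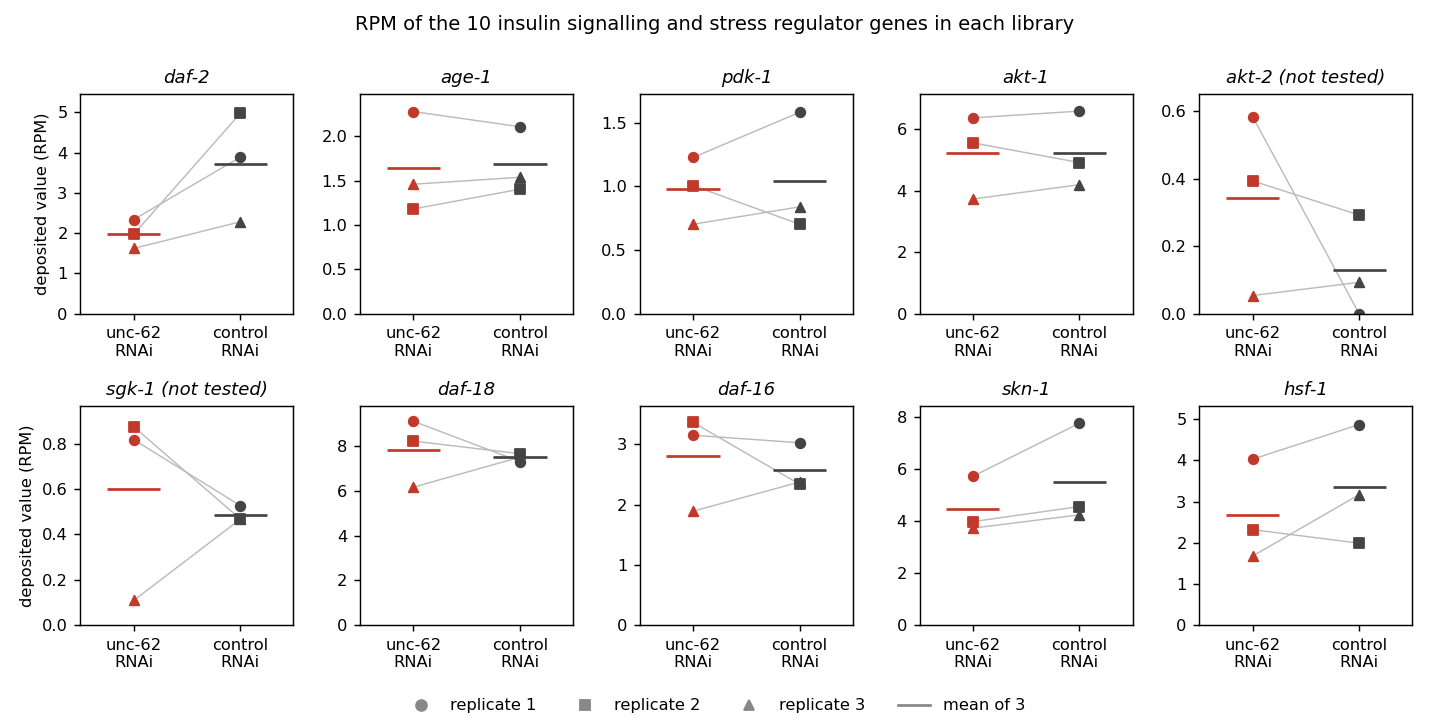
Level of each of the 10 genes in RPM (vertical axis, starting at 0, with its own scale for each gene) in the *unc-62* RNAi and the control RNAi libraries. Symbols mark the replicate, grey lines join libraries of the same number and bars give the mean of 3. The RPM ranges of the treatments, before TMM scaling, overlap for every gene. *daf-2* and *skn-1* are lower upon *unc-62* RNAi along all 3 lines.

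*daf-2* (Y55D5A.5) encodes the receptor of the insulin and insulin-like growth factor kind. It had 2.34, 1.97 and 1.62 RPM upon *unc-62* RNAi, from 40, 45 and 30 reads. In control RNAi it had 3.88, 4.97 and 2.28 RPM, from 59, 85 and 49 reads. Control replicate 2 was the highest of the 6 libraries. In RPM, control replicate 3 was just below *unc-62* RNAi replicate 1, which makes the ranges overlap. After TMM scaling, with factors of 0.927 for control replicate 3 and 1.16 for *unc-62* RNAi replicate 1, their order was reversed. The mean was 1.97 ± 0.357 RPM upon *unc-62* RNAi and 3.71 ± 1.35 RPM in control RNAi (SD, n = 3 each). Within replicates 1, 2 and 3 the log2 fold change was -0.74, -1.39 and -0.46. The limma estimate was -0.86 with an SE of 0.26 and a 95% interval of -1.53 to -0.19, with an adjusted p = 0.252 after Benjamini-Hochberg adjustment. The difference therefore held in sign in every replicate and did not pass the correction over 7333 genes. An exact two-sided permutation test of the RPM values before TMM scaling gave p = 0.2, where 3 libraries against 3 cannot go below 0.1.

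The *daf-2* estimate ranged between -1.13 and -0.57 over 18 alternative settings, with adjusted p between 0.0037 and 0.822. Without replicate 3 it was -1.04 with an adjusted p = 0.00374 by limma with Benjamini-Hochberg adjustment. That setting leaves 2 libraries of each treatment. With so few libraries and the replicate block, little of a gene's variance is measured, and the rest is borrowed from all genes. Its adjusted p-values, here and below, are therefore not comparable with those from all 6 libraries. It called 1190 of all 7333 genes, and *daf-2* was the single call among the 8. Every other setting left *daf-2* uncalled. Pooled over libraries, *daf-2* had 115 reads upon *unc-62* RNAi and 193 in control RNAi, a ratio of 0.548 per mapped read with an exact 95% interval of 0.431 to 0.693, which covers counting error only.

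*age-1* (B0334.8) encodes the catalytic subunit of the phosphoinositide 3-kinase below DAF-2. It had 2.28, 1.18 and 1.46 RPM upon *unc-62* RNAi and 2.11, 1.40 and 1.54 RPM in control RNAi. Replicate 1 was the highest in both treatments, and the ranges overlapped almost entirely. The log2 fold change was -0.09 (SE 0.22, 95% interval -0.65 to 0.47, adjusted p = 0.899 by limma with Benjamini-Hochberg adjustment).

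*pdk-1* (H42K12.1), the kinase that phosphorylates the AKT proteins, had the fewest reads of the tested genes. Its level was 1.23, 1.01 and 0.703 RPM upon *unc-62* RNAi and 1.58, 0.702 and 0.839 RPM in control RNAi, from between 12 and 24 reads in each library. The control libraries spanned more than the *unc-62* RNAi libraries on both sides. The log2 fold change was -0.06 (SE 0.28, 95% interval -0.77 to 0.66, adjusted p = 0.960 by limma with Benjamini-Hochberg adjustment), with the widest such interval of the 8 genes and the largest change needed for a call, 1.82.

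*akt-1* (C12D8.10) encodes one of the kinases that phosphorylate DAF-16. It had 6.37, 5.55 and 3.73 RPM upon *unc-62* RNAi and 6.58, 4.91 and 4.19 RPM in control RNAi, with means of 5.22 ± 1.35 RPM and 5.23 ± 1.23 RPM (SD, n = 3 each). In both treatments replicate 1 was the highest and replicate 3 the lowest. The log2 fold change was -0.04 (SE 0.20) and its 95% interval, -0.55 to 0.47, was among the narrowest of the 8. A change of 1.29 would have been needed for a call.

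*akt-2* (F28H6.1), the paralog of *akt-1*, was near the limit of detection. It had 10, 9 and 1 reads upon *unc-62* RNAi and 0, 5 and 2 reads in control RNAi. The 0 in control replicate 1 allows a level of up to 0.198 RPM, the value of 3 reads there. Pooled, 20 reads upon *unc-62* RNAi stood against 7 in control RNAi, a ratio of 2.63 with an exact 95% interval of 1.07 to 7.35 for counting error alone. Almost all the *unc-62* RNAi reads came from replicates 1 and 2, and without the filter the log2 fold change was 1.12 (SE 0.76, adjusted p = 0.749 by limma with Benjamini-Hochberg adjustment). *akt-1* and *akt-2* are similar in sequence, and reads that map to both were left out of each.

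*sgk-1* (W10G6.2), the third kinase of this step, had 14, 20 and 2 reads upon *unc-62* RNAi and 8, 8 and 10 reads in control RNAi. The control libraries were nearly equal, at 0.487 ± 0.0346 RPM (SD, n = 3), while *unc-62* RNAi replicate 3 was the lowest of all 6 libraries and replicates 1 and 2 were the highest. The mean upon *unc-62* RNAi was 0.60 ± 0.427 RPM (SD, n = 3). The pooled ratio was 1.27, with an exact 95% interval of 0.747 to 2.19 for counting error, and without the filter the log2 fold change was -0.13 (adjusted p = 0.964 by limma with Benjamini-Hochberg adjustment). The pooled ratio and the fitted value have opposite signs.

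*daf-18* (T07A9.6), the lipid phosphatase that opposes AGE-1, was the best covered of the set with 114 to 188 reads in each *unc-62* RNAi library and 111 to 161 in each control library. Its level was 9.11, 8.22 and 6.16 RPM upon *unc-62* RNAi and 7.31, 7.66 and 7.50 RPM in control RNAi. The control libraries lay within the span of the *unc-62* RNAi libraries, with SDs of 1.51 RPM upon *unc-62* RNAi and 0.176 RPM in control RNAi. The log2 fold change was 0.02 (SE 0.22, 95% interval -0.54 to 0.58, adjusted p = 0.981 by limma with Benjamini-Hochberg adjustment).

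*daf-16* (R13H8.1), the FOXO factor at the end of the cascade, had 3.15, 3.37 and 1.89 RPM upon *unc-62* RNAi and 3.03, 2.34 and 2.38 RPM in control RNAi. *unc-62* RNAi replicates 1 and 2 were the highest of the 6 libraries and replicate 3 the lowest. The means were 2.80 ± 0.797 RPM upon *unc-62* RNAi and 2.58 ± 0.388 RPM in control RNAi (SD, n = 3 each). The log2 fold change was 0.06 (SE 0.24, 95% interval -0.55 to 0.67, adjusted p = 0.948 by limma with Benjamini-Hochberg adjustment).

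*skn-1* (T19E7.2), the detoxification factor, was the other gene that was lower in all 3 replicates. It had 5.72, 3.98 and 3.73 RPM upon *unc-62* RNAi and 7.77, 4.56 and 4.24 RPM in control RNAi. Control replicate 1 was the highest and *unc-62* RNAi replicate 3 the lowest, and replicate 1 was high in both treatments. The log2 fold change was -0.45, -0.27 and -0.16 within replicates 1, 2 and 3, and the estimate was -0.30 (SE 0.20, 95% interval -0.81 to 0.22, adjusted p = 0.644 by limma with Benjamini-Hochberg adjustment). A gene lower in all 3 replicates was common, since 1452 of all tested genes were (19.8%) beside 2 of the 8.

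*hsf-1* (Y53C10A.12), the heat shock factor, varied widely among replicates. It had 4.03, 2.32 and 1.68 RPM upon *unc-62* RNAi and 4.87, 1.99 and 3.17 RPM in control RNAi. Replicate 1 was the highest in both treatments, and the coefficient of variation was 45.5% upon *unc-62* RNAi and 43.4% in control RNAi. Within replicates 1, 2 and 3 the log2 fold change was -0.29, 0.14 and -0.88. The estimate was -0.34 (SE 0.27, 95% interval -1.03 to 0.35, adjusted p = 0.679 by limma with Benjamini-Hochberg adjustment). The SD within each treatment, 1.22 RPM upon *unc-62* RNAi and 1.45 RPM in control RNAi, exceeded the difference between the means, 2.67 RPM upon *unc-62* RNAi and 3.34 RPM in control RNAi. The *hsf-1* estimate rested largely on replicate 3, as it was -0.05 without that replicate, and it ran from -0.61 to -0.05 over 17 alternatives, with no call.

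**Figure D2:**
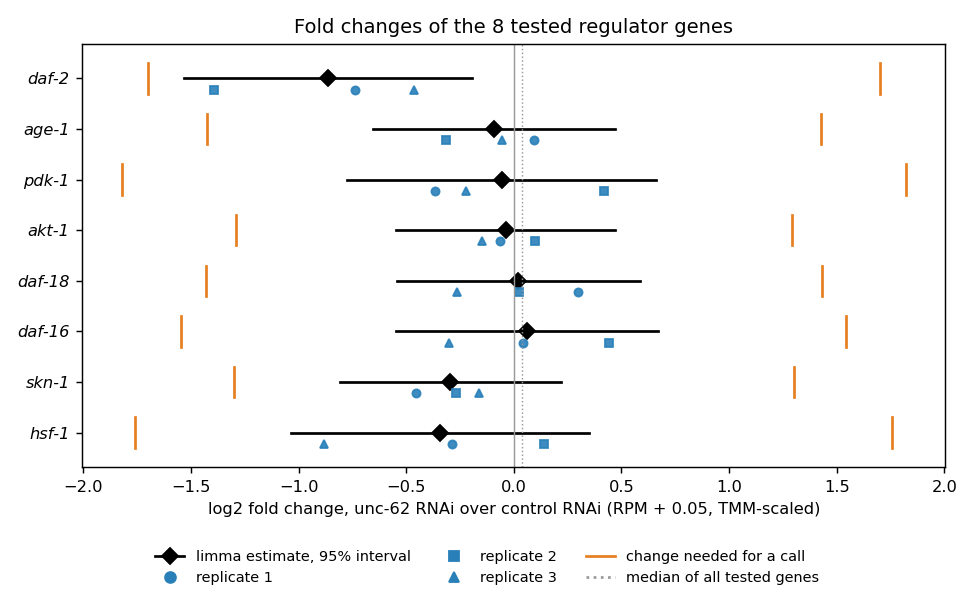
Log2 fold change of the 8 tested genes, *unc-62* RNAi over control RNAi. Diamonds and lines give the limma estimate and its 95% interval, blue symbols the fold change within each replicate and orange ticks the change that would have been called at that gene's SE. The interval of *daf-2*, -1.53 to -0.19, is the only one that leaves out 0, and no estimate reaches its orange ticks.

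The precision was that of most genes. The median SE was 0.228 for the 8 genes and 0.256 for all tested genes, and the smallest fold change among the 96 calls was 1.17 in size. For 7 of the 8 genes the estimate was at most 0.34 from 0. The replicates differed in the share of the set that was lower. In replicate 3 all 8 were lower upon *unc-62* RNAi, with a median of -0.24. In replicate 1 there were 5 of 8 (median -0.18), and in replicate 2 there were 3 of 8 (median 0.06). Over all tested genes the medians of replicates 1, 2 and 3 were 0.03, -0.06 and -0.05.

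The libraries list between 1 and 9 transcripts for each of the 10 genes, and transcripts that share an end share reads, so they are not independent. For *skn-1*, T19E7.2b carried most reads and was the transcript used above. The remaining 8 *skn-1* transcripts had nearly equal values among themselves. T19E7.2a had 22, 19 and 29 reads upon *unc-62* RNAi and 13, 15 and 7 reads in control RNAi. On average this is the opposite direction from T19E7.2b, although in replicate 2 the levels were close, at 0.831 RPM upon *unc-62* RNAi and 0.877 RPM in control RNAi. T19E7.2a had a mean of 1.23 ± 0.372 RPM upon *unc-62* RNAi and 0.686 ± 0.312 RPM in control RNAi (SD, n = 3 each). With T19E7.2c.3, the transcript of second highest mean, in place of T19E7.2b the log2 fold change was 0.81 (SE 0.50, 95% interval -0.48 to 2.11, adjusted p = 0.609 by limma with Benjamini-Hochberg adjustment). Neither transcript passed the test, and the difference between them was not tested.

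**Figure D3:**
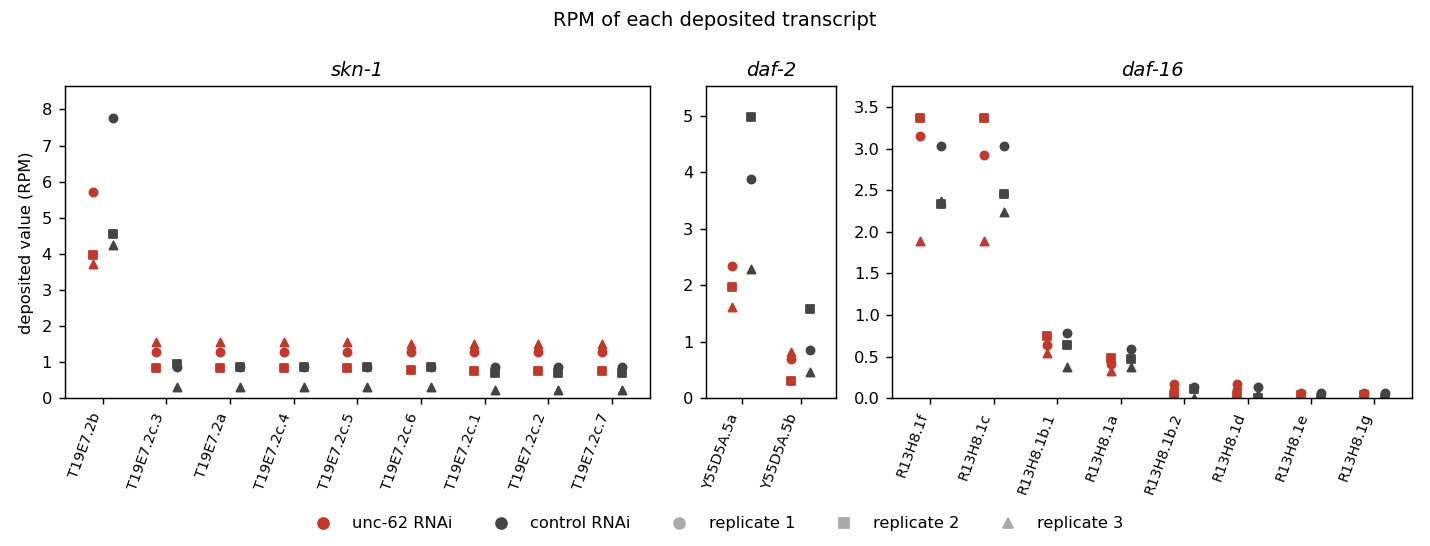
RPM of each listed transcript of *skn-1*, *daf-2* and *daf-16* (vertical axes from 0) in the *unc-62* RNAi libraries (red) and the control RNAi libraries (dark grey), with symbols for the replicates. T19E7.2b is lower upon *unc-62* RNAi in each replicate, while T19E7.2a averages 1.23 RPM upon *unc-62* RNAi and 0.686 RPM in control RNAi.

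Of *daf-2*, Y55D5A.5a was used above, and Y55D5A.5b had 12, 7 and 15 reads upon *unc-62* RNAi and 13, 27 and 10 reads in control RNAi. The values of Y55D5A.5b overlapped widely, and its log2 fold change was -0.60 (SE 0.62, adjusted p = 0.746 by limma with Benjamini-Hochberg adjustment). Of the 8 *daf-16* transcripts, R13H8.1f and R13H8.1c had nearly the same reads, and R13H8.1c gave a log2 fold change of 0.03 (SE 0.22). Another 6 *daf-16* transcripts had at most 17 reads in any library. For *pdk-1* the transcripts H42K12.1a and H42K12.1b were alike, and H42K12.1a gave -0.02 (SE 0.30). For *akt-1* and *akt-2* the leading transcripts were identical in every library, and the minor transcripts of *akt-1*, *sgk-1* and *hsf-1* did not reach the filter of 10 reads in all 3 libraries of a treatment.

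In the WBcel235 annotation, which is later than the WS215 annotation of the files, the non-coding RNA gene *linc-143* overlaps *daf-2* and T19E7.27 overlaps *skn-1* on the same strand, and reads there cannot be assigned to one or the other. No protein-coding gene overlaps any of the 10 on the same strand. Overlaps on the opposite strand are annotated for *age-1*, *akt-1*, *daf-16*, *pdk-1* and *skn-1*, and only sense reads were counted.

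For each of the 3 transcription factors, the tested genes with the highest Pearson correlation of scaled log2 values were noted. The correlations run over 6 libraries that share depth and preparation, and are given as a description with no test. *daf-16* was most like ZK1248.11 (r = 0.998), *ooc-3* (0.987) and ZK484.3 (0.982). *skn-1* was most like *letm-1* (0.987), E02C12.8 (0.982) and *lis-1* (0.977). *hsf-1* was most like *fat-2*, which encodes a fatty acid desaturase (0.994), *gstk-1* (0.981) and *tmed-1* (0.981). With so few libraries such values were common, as 51, 73 and 106 genes had an r over 0.9 with *daf-16*, *skn-1* and *hsf-1* in that order. None of the 9 genes was called, with log2 fold changes between -0.55 (*letm-1*) and 0.09 (*ooc-3*).

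The genes around the set were read from lists of known ligands, partners, regulators and outputs. Together the lists matched 144 genes, of which 86 were tested, and by limma with Benjamini-Hochberg adjustment 0 were called higher and 3 lower. All 3 belong to the genes that active DAF-16 lowers. Over all 7333 genes 36 were called higher (0.491%) and 60 lower (0.818%).

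Of 40 insulin-like peptide genes, the ligands of DAF-2, 38 were matched and 12 were tested. None was called, 8 were above 0 and 4 below, and the median was 0.10. By replicate 1, 2 and 3 the list median was -0.15, -0.04 and 0.84. The highest was *ins-11*, with 347, 374 and 474 reads upon *unc-62* RNAi and 73, 132 and 45 reads in control RNAi. Its ranges did not overlap, and the log2 fold change was 2.22 (SE 0.52, adjusted p = 0.174 by limma with Benjamini-Hochberg adjustment). *ins-11* was called under 5 of 17 alternatives, with adjusted p from 2.99e-07 (limma without replicate 3) to 0.631. The lowest was *ins-37* at -0.51 (SE 0.37, adjusted p = 0.664 by limma), with -0.01 without replicate 3. *ins-7*, a ligand that activates DAF-2 and that active DAF-16 lowers, had 44, 35 and 19 reads upon *unc-62* RNAi and 30, 30 and 23 reads in control RNAi. Its log2 fold change was 0.02 (SE 0.24, adjusted p = 0.986 by limma with Benjamini-Hochberg adjustment), so no change of this ligand was detectable. The peptide genes that were not tested had at most 8 reads in any library, and 3 of them had 0 in all.

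Of 26 adaptors, 14-3-3 proteins, TOR complex members and nuclear partners of DAF-16, all were matched and 22 were tested. None was called, with 8 above 0 and 14 below and a median of -0.18. The lowest was *smk-1*, a nuclear co-factor that DAF-16 needs for some of its functions, with 243, 886 and 114 reads upon *unc-62* RNAi and 432, 1129 and 402 reads in control RNAi. It was lower within every replicate (-1.02, -0.84 and -1.58), while the libraries of replicate 2 were far above the rest in both treatments. The estimate was -1.15 (SE 0.24, adjusted p = 0.145 by limma with Benjamini-Hochberg adjustment), and 3 of 17 alternatives called it, with adjusted p from 0.000493 to 0.948. The highest was *shc-1*, the Shc adaptor, at 1.47 (SE 1.02, adjusted p = 0.653 by limma). That value rests on replicate 3, where *shc-1* had 240 reads upon *unc-62* RNAi and 11 in control RNAi, and without replicate 3 it was -0.05. *aap-1*, the adaptor subunit of AGE-1, was at -0.26 (SE 0.24), and *ftt-2*, a 14-3-3 protein that binds phosphorylated DAF-16, was at -0.41 (SE 0.18). *aap-1* and *ftt-2* were named after their values were seen.

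**Figure D4:**
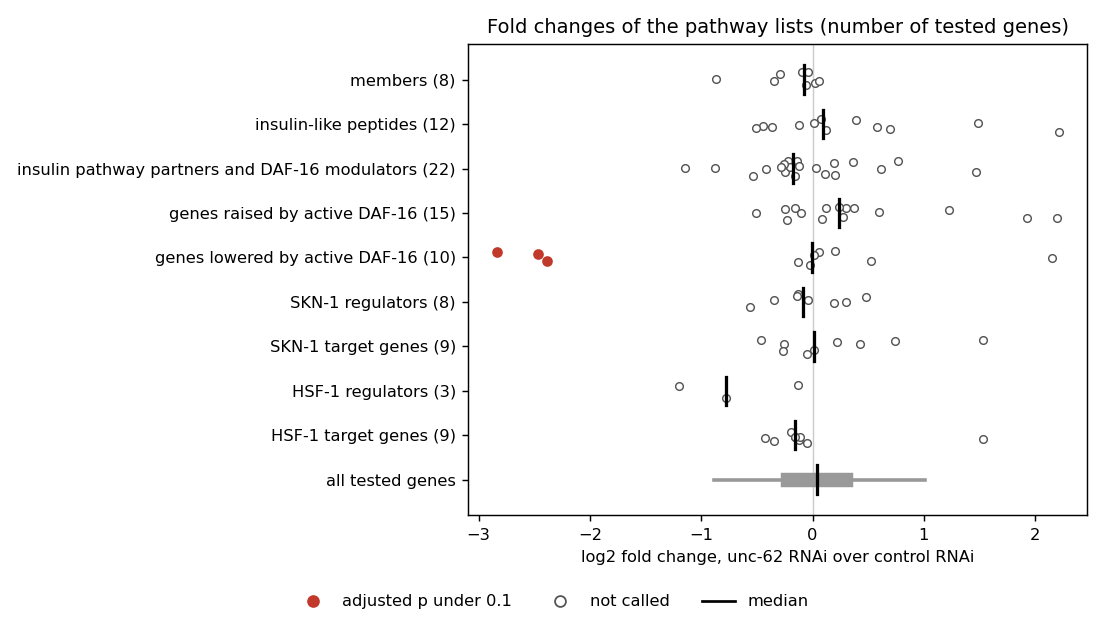
Log2 fold change (horizontal axis, *unc-62* RNAi over control RNAi) of each tested gene of the 10-gene set (first line) and of the lists around it, with the number of tested genes in parentheses. Red points have an adjusted p under 0.1, open points do not, black bars are medians, and the grey bar and line of all tested genes span the middle 50% and the middle 90%. The 3 red points, *vit-5*, *vit-2* and *dod-23*, all lie below -2 among the genes lowered by active DAF-16.

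Of 28 genes that active DAF-16 is known to raise, 24 were matched and 15 were tested. None was called, 10 were above 0 and 5 below, and the median was 0.23, against 0.04 over all genes. By replicate 1, 2 and 3 the list median was 0.07, -0.06 and 0.61, against 0.03, -0.06 and -0.05 over all genes. The higher median thus rested on replicate 3. *lys-8*, a lysozyme gene, had 112, 94.4 and 146 RPM upon *unc-62* RNAi and 39.4, 31.1 and 21.9 RPM in control RNAi. Its ranges did not overlap, and the log2 fold change was 1.92 (SE 0.32, adjusted p = 0.116 by limma with Benjamini-Hochberg adjustment). The call of *lys-8* thus depended on the setting, as 10 of 17 alternatives made it, with adjusted p from 7.68e-10 (limma without replicate 3) to 0.448. *ftn-1*, which encodes an iron-storing ferritin, averaged 20.1 ± 0.948 RPM upon *unc-62* RNAi and 8.47 ± 1.11 RPM in control RNAi (SD, n = 3 each). The libraries of each treatment were close together, and the log2 fold change was 1.23 (SE 0.22, adjusted p = 0.12 by limma with Benjamini-Hochberg adjustment), with a call under 5 of 17 alternatives and adjusted p from 0.000103 to 0.624. *lys-8* and *ftn-1* were named after their values were seen. The highest estimate of the list was *spp-12*, a saposin-like antimicrobial gene, at 2.19 (SE 1.03, adjusted p = 0.474), from 10, 12 and 306 reads upon *unc-62* RNAi and 4, 7 and 8 reads in control RNAi, so that 1 library carried it, and without replicate 3 it was 0.65. The lowest was *dod-3* at -0.51 (SE 0.31, adjusted p = 0.604 by limma, and -0.88 with an adjusted p = 0.000161 without replicate 3, from a range of 0.000161 to 0.999 over 17 alternatives).

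*sod-3*, a mitochondrial superoxide dismutase and the gene most often used as a readout of DAF-16, was not tested because of its low reads. It had 9, 8 and 6 reads upon *unc-62* RNAi and 9, 1 and 4 reads in control RNAi. The ranges overlapped, and no change was detectable at this depth.

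Of 16 genes that active DAF-16 is known to lower, 14 were matched and 10 were tested, with 3 called lower and a median of 0.00. *vit-2* and *vit-5* encode yolk proteins made in the intestine, and their fall upon *unc-62* RNAi is among the main subjects of the study, so it is not independent evidence about this list. *vit-2* had 1256, 1184 and 1233 RPM upon *unc-62* RNAi and 6786, 8680 and 4994 RPM in control RNAi. *vit-5* had 102, 64.2 and 99.4 RPM upon *unc-62* RNAi and 784, 760 and 383 RPM in control RNAi. In neither gene did the ranges overlap, and the log2 fold changes were -2.47 (SE 0.21, adjusted p = 0.0456) for *vit-2* and -2.84 (SE 0.35, adjusted p = 0.0731) for *vit-5*, both by limma with Benjamini-Hochberg adjustment. Yolk genes are similar to each other, and reads that map to several of them were left out, so these levels are uncertain. *dod-23* had 39, 21 and 15 reads upon *unc-62* RNAi and 131, 78 and 140 reads in control RNAi, lower within every replicate, with an estimate of -2.39 (SE 0.27, adjusted p = 0.0670 by limma with Benjamini-Hochberg adjustment).

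These 3 calls depended on the replicates included, although all alternatives kept the direction, with estimates between -2.68 and -2.22 for *vit-2*, -3.27 and -2.44 for *vit-5* and -2.75 and -2.03 for *dod-23*. Without replicate 1 no gene of the whole table was called, and adjusted p was 0.269 for *vit-2*, 0.366 for *vit-5* and 0.276 for *dod-23*, with estimates of -2.46, -2.77 and -2.61. Without replicate 2 only *vit-2* of the 3 was called (adjusted p = 0.0792), with 0.195 for *vit-5* and 0.201 for *dod-23*, all by limma with Benjamini-Hochberg adjustment. With no replicate block, *dod-23* also lost its call without control RNAi replicate 2 (adjusted p = 0.113) and without control RNAi replicate 3 (0.136). Over 17 alternatives *vit-2* was called in 16, *vit-5* in 15 and *dod-23* in 13. Other genes of the list did not share the direction. *dod-22* had 54, 73 and 25 reads upon *unc-62* RNAi and 13, 5 and 10 reads in control RNAi, at 2.15 (SE 0.40, adjusted p = 0.128 by limma with Benjamini-Hochberg adjustment, called under 7 of 17 alternatives, with adjusted p from 9.08e-08 to 0.541), and 5 of the 10 tested genes were above 0.

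Of 12 regulators of SKN-1, 8 were tested and none was called, with a median of -0.09. The values ran from -0.56 (SE 0.35) for *gsk-3*, a kinase that inhibits SKN-1, to 0.48 (SE 0.20, adjusted p = 0.403 by limma) for *xrep-4*, an F-box protein that frees SKN-1 from its repressor WDR-23. Of 18 genes listed as SKN-1 targets, mostly detoxification and glutathione genes, 17 were matched and 9 were tested. Again none was called, and the median was 0.02. The highest was *gst-10*, a glutathione S-transferase, with 54, 92 and 72 reads upon *unc-62* RNAi and 19, 13 and 40 reads in control RNAi. Its ranges did not overlap, and the log2 fold change was 1.54 (SE 0.31, adjusted p = 0.141 by limma with Benjamini-Hochberg adjustment, called under 2 of 17 alternatives, with adjusted p from 7.89e-06 to 0.589). The lowest was *trxr-1*, a thioredoxin reductase, at -0.47 (SE 0.20, adjusted p = 0.433 by limma).

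The 3 proteins that hold HSF-1 in an inhibitory complex were all tested, and all were below 0 with no call. *ddl-2* had 25, 31 and 16 reads upon *unc-62* RNAi and 55, 37 and 58 reads in control RNAi. Its ranges did not overlap, and it was lower within every replicate, at -1.20 (SE 0.26, adjusted p = 0.153 by limma with Benjamini-Hochberg adjustment). *ddl-1*, named after its value was seen, was at -0.77 (SE 0.31, adjusted p = 0.386) and *hsb-1* at -0.13 (SE 0.21, adjusted p = 0.839), and *hsb-1* changed sign without replicate 3. Of 20 chaperone symbols known as HSF-1 targets, 19 genes were matched, since *daf-21* and *hsp-90* name the same gene, and 9 were tested. None was called, 8 of the 9 were below 0, beside 45.9% of all tested genes, and the median was -0.15. The lowest was *hsp-110* at -0.43 (SE 0.24, adjusted p = 0.566 by limma). The highest was *unc-23*, a co-chaperone, at 1.53 (SE 0.84, adjusted p = 0.557), from 10, 14 and 12 reads upon *unc-62* RNAi and 6, 9 and 0 reads in control RNAi, where the estimate depends on the 0, and without replicate 3 it was 0.34. A total of 4 of the listed heat shock genes, all of the *hsp-16* family, had 0 reads in every library. Reads that map to several genes were left out, so the 0 does not show that these genes were silent. The HSF-1 target list shares 8 genes with those raised by active DAF-16.

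Whole worms were used, so a gene of low level is an average over tissues, and fewer cells of a type and less RNA per cell cannot be told apart. No marker list had a gene at 0 reads in all libraries. Of all tested genes 45.9% were below 0 and 0.818% were called lower. Hypodermis markers were below 0 in 10 of 10 tested genes (median -1.08, 2 called), with a summed level of 769 to 1424 RPM upon *unc-62* RNAi and 1048 to 2456 RPM in control RNAi. Most hypodermis markers are cuticle collagen genes, whose fall the study reports from these same libraries. That list is therefore not an independent measure of the share of hypodermis. Sperm markers were below 0 in 7 of 7 tested genes (median -1.28, none called), at 95.9 to 183 RPM upon *unc-62* RNAi and 152 to 413 RPM in control RNAi. Muscle markers were below 0 in 11 of 12 (median -0.64, none called), at 436 to 626 RPM upon *unc-62* RNAi and 366 to 933 RPM in control RNAi.

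Intestine markers were above 0 in 9 of 12 (median 0.56, none called), with 10089 to 12422 RPM upon *unc-62* RNAi and 7552 to 8364 RPM in control RNAi. Neuron markers had a median of -0.04 over 5 tested genes, at 30.2 to 40.4 RPM upon *unc-62* RNAi and 22.7 to 46.9 RPM in control RNAi. Germline and oocyte markers had a median of 0.01 over 12 genes, at 5290 to 5797 RPM upon *unc-62* RNAi and 5137 to 5557 RPM in control RNAi. The part of these tissues in the values of *daf-2*, *lys-8*, *ftn-1* and the other genes above was not tested.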

How the data were processed

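Poly-A RNA was sequenced at the 3′ end (36-base single reads) in 6 libraries, and per the labels and the methods reads were aligned to WS215 with Bowtie 0.12.7. The authors deposited a signal for 25531 transcripts, reads mapped uniquely to the sense strand and scaled to 1000000 uniquely mapped reads (RPM). In 100% of 153186 values these were whole reads within 0.01, so reads were recovered. The 2 identifiers that name no gene held 0 reads. WBcel235 gene tables named 16959 of 17684 genes.

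Each gene was read from its transcript of highest mean. Genes with at least 10 reads in all 3 libraries of a treatment were tested in R 4.3.3. Values of log2(RPM + 0.05), scaled by TMM factors from edgeR 4.0.16 (0.914 to 1.16), were fitted by limma 3.58.1 with its trend option. The replicate number was a block, since the methods divide each batch between treatments and take fold changes within replicates. Benjamini-Hochberg adjustment ran over 7333 genes. The 10 genes and the lists were chosen with earlier results of these data known. Named genes are the 10, *unc-62*, *ins-7*, *sod-3*, the called and extreme genes of each list and the closest patterns; others are stated as chosen after their values were seen. Alternatives were the scaling, the pseudocount (0.5), the filter, no block, edgeR's quasi-likelihood test and DESeq2 1.42.0 on the recovered reads, the second transcript, and leaving out replicates or libraries. The limma p-values measure the spread of the differences within replicates, with the variance of each gene drawn towards a trend over all genes. With no block they rest on the spread between libraries of the same treatment. Same-treatment libraries differed beyond sampling noise (chi-square per degree of freedom 36.8 to 201). The models were run on simulated data whose libraries varied independently, with no replicate effect. That run does not cover a replicate that stands apart, as replicate 3 did. The study's rank product test, which permutes over genes, was not run here.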

Additional observations from a re-analysis of the deposited data

How the results depend on the processing

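Of 140 values of the 8 tested genes under alternatives, 123 kept their direction and their side of the threshold, and 16 changed sign, none of them called. When replicates or single libraries were left out, the log2 fold change ranged from -0.26 to 0.085 for *age-1*, -0.30 to 0.15 for *pdk-1*, -0.14 to 0.11 for *akt-1*, -0.12 to 0.19 for *daf-18* and -0.13 to 0.27 for *daf-16*. The second *skn-1* transcript gave 0.81. The count of called genes among the 8 was 0 under every setting except without replicate 3, where it was 1 (*daf-2*), for a range of 0 to 1.

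Over all genes, 36 were called higher and 60 lower. DESeq2 called 102 higher and 192 lower, and no filter on low reads gave 96 and 157. With no replicate block, 60 were higher and 82 lower. Leaving out replicates or single libraries gave 0 to 473 higher and 0 to 717 lower, with 0 in all without replicate 1 (506 at an unadjusted p under 0.05 by limma) and 1190 without replicate 3. Of the 96 calls, 72 were shared with the fit without the block and 92 with edgeR. Deviations of equal replicate numbers from the treatment means correlated at 0.42, 0.20 and -0.18 in replicates 1, 2 and 3, so the values do not show that the numbers pair libraries, and the block follows the methods. For the pathway lists, calls higher numbered 5 by DESeq2, 1 with the deposited RPM, 3 by edgeR with no replicate block, 4 with no filter and 4 with no replicate block, against 0, and 0 to 11 when replicates or libraries were left out. Calls lower then ran from 0 to 13, against 3.

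Of 476 values of other named genes, 422 kept direction and side, 35 passed the threshold newly, 7 fell short of it and 12 changed sign. With replicates or libraries left out, *unc-62* ranged from -0.48 to 0.016, *ins-7* from -0.23 to 0.25, *shc-1* from -0.055 to 2.52, *hsb-1* from -0.24 to 0.021, *aap-1* from -0.44 to 0.047, *par-5* from -0.29 to 1.44 and *glh-1* from -0.25 to 2.33. The cause of these differences was not tested. At 0 to 20 reads a library, *akt-2*, *sgk-1* and *sod-3* were too shallow for the test.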

Other observations

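Replicate 3 held many genes that moved in it alone. A total of 343 tested genes were more than 2 higher on the log2 scale upon *unc-62* RNAi in replicate 3 while within 1 in both other replicates, and 6 were lower in this way. The same count of higher genes was 5 for replicate 1 and 8 for replicate 2. *shc-1* and *spp-12*, given above, were of this kind.

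*par-5*, a 14-3-3 protein of the DAF-16 partner list that also acts in the early embryo, had 2356, 1519 and 10358 reads upon *unc-62* RNAi and 2150, 1592 and 1593 reads in control RNAi. *glh-1*, a germline helicase, had 2750, 1219 and 6871 reads upon *unc-62* RNAi and 1941, 1567 and 398 reads in control RNAi. *cpg-2*, an eggshell proteoglycan, had 1986, 1361 and 12656 reads upon *unc-62* RNAi and 1476, 1108 and 1440 reads in control RNAi. In each of these genes *unc-62* RNAi replicate 3 was far above the other 5 libraries, and for *glh-1* control replicate 3 was also the lowest. The adjusted p by limma with Benjamini-Hochberg adjustment was 0.717 for *par-5*, 0.681 for *glh-1* and 0.627 for *cpg-2*. Without replicate 3 the log2 fold change was -0.29 for *par-5*, -0.25 for *glh-1* and 0.045 for *cpg-2*, against 0.77, 1.27 and 1.14 with all replicates. These 3 genes were named after their values were seen. *glh-1* and *cpg-2* come from the 12 germline and oocyte markers, which as a list moved little in replicate 3. The median log2 fold change of that list in replicate 3 was 0.10. Its summed level was 5501 RPM in *unc-62* RNAi replicate 3 and 5137 RPM in control RNAi replicate 3.

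*gst-5*, a glutathione S-transferase listed as a SKN-1 target and not tested, had 6, 7 and 151 reads upon *unc-62* RNAi and 8, 11 and 8 reads in control RNAi, and so was high in the same library. It was named after its values were seen.

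Among pairs of the 8 tested genes, the Pearson correlation of scaled log2 values over the 6 libraries ran from -0.45 (*daf-18* with *skn-1*) to 0.83 (*pdk-1* with *hsf-1*). It was 0.76 for *skn-1* with *hsf-1* and -0.01 for *daf-2* with *daf-16*. These are descriptions over libraries that share treatment and replicate.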
